A study of Mus musculus with 2 samples.

Results

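The genes described here are 8 members of nitric oxide and cyclic GMP (cGMP) signalling, Nos1, Gucy2d, Prkg1, Prkg2, Pde11a, Nppc, Npr1 and Npr3, out of 19575 genes in the count table. They were chosen by name, with their levels in these nuclei already known. Earlier results of the comparison between injured and naive mice were known too. The values below are therefore a description and carry no test. Nuclei of the spinal dynorphin lineage came from adult mice of either sex, genotype Pdyn-IRES-Cre(+/-); R26-LSL-Sun1.eGFP(+/-), which all groups share. In these mice Cre from the prodynorphin locus switches on a green fluorescent nuclear envelope protein for good, so a labelled nucleus need not transcribe Pdyn when it is collected. Nuclei were taken from lumbar (L3-L5) dorsal spinal cord and sorted for GFP. The naive library pooled 8 mice that had isoflurane alone at postnatal day 3, littermates of the injured mice, and the injured library pooled 8 mice whose left plantar hindpaw was incised at postnatal day 3. With 1 pooled library per group there is no replicate and no p-value.

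Nitric oxide synthase makes nitric oxide from arginine, and the gas binds soluble guanylyl cyclase, which makes cGMP. Natriuretic peptides reach the same messenger through receptors that are themselves guanylyl cyclases. cGMP then acts on cGMP-dependent kinases and cyclic nucleotide-gated channels until phosphodiesterases break it down, and in the dorsal horn neuronal nitric oxide synthase is a long-known mark of part of the inhibitory neurons. Nos1 encodes that neuronal synthase. Gucy2d in the mouse encodes guanylyl cyclase D, a receptor cyclase known from olfactory neurons. Nppc encodes the precursor of C-type natriuretic peptide, Npr1 the cyclase receptor of the atrial and brain peptides, and Npr3 the clearance receptor, which has no cyclase domain. Prkg1 and Prkg2 encode cGMP-dependent kinases I and II, and Pde11a encodes a phosphodiesterase that hydrolyses both cAMP and cGMP.

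The RefSeq promoter table (build GRCm38.p6) held windows for 7 of the 8 genes. The 250 bases before the start are shown for the 3 genes that were highest in the same clusters of nuclei below, Gucy2d (chr7:98440166-98440415, plus strand), Pde11a (chr2:76338939-76339188, minus strand) and Npr1 (chr3:90465867-90466116, minus strand), and for the peptide gene Nppc (chr1:86670574-86670823, minus strand), which marked others. Capitals mark matches on either strand to the GC box GGGCGG, the CCAAT box, the half-site TGACG of the cAMP response element and the half-site AGGTCA bound by ROR factors.
Gucy2d: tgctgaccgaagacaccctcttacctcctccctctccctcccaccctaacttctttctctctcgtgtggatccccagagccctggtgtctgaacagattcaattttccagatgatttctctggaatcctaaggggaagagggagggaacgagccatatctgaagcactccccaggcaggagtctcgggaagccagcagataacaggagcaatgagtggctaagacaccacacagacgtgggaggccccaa
Pde11a: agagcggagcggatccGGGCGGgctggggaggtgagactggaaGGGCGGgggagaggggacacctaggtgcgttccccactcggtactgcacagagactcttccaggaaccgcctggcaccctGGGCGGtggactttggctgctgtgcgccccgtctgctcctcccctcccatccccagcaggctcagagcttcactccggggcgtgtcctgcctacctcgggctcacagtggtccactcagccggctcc
Npr1: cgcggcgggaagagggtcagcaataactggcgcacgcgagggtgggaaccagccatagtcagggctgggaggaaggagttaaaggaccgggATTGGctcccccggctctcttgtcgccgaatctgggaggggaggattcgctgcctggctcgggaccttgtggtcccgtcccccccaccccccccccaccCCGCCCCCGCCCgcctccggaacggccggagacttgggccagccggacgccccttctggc
Nppc: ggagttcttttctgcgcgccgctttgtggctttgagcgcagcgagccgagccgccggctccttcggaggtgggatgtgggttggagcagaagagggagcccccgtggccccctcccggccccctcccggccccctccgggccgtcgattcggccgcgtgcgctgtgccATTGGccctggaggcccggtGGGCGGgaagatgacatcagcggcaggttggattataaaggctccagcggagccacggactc
The GC box was found 3 times before Pde11a, 2 times before Npr1 and 1 time before Nppc, and 32.7% of 32851 windows of this length in the table held it. A CCAAT box was found before Npr1 and before Nppc (33.8% of all windows). None of these 4 windows held TGACG (17.8% of all windows) or AGGTCA (14.02%), and the Gucy2d window held none of the 4 motifs. A match describes the letters in the window and is not a binding site. The windows of the first 3 genes had GC contents of 54.4% (Gucy2d), 68.4% (Pde11a) and 70.4% (Npr1).

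Counts of unique molecular identifiers (UMIs, 1 per captured RNA molecule) were summed over the nuclei of a class in a library and given as CPM, counts per 1000000 UMIs of that class. Intervals are 95% and cover counting error only, not the spread between mice. The naive library held 4063 nuclei with a median of 6955 UMIs, the injured library 3547 nuclei with a median of 8464, and 3 cell barcodes occurred in both. Classes were rebuilt by clustering with the 8 genes and the rest of the pathway kept out, so they need not match the classes the study itself used. Inhibitory-like nuclei, set by GABA and glycine genes, numbered 2510 naive (median 6664.5 UMIs) and 2082 injured (median 7768). Excitatory-like nuclei, set by Slc17a6, numbered 736 naive (median 8248) and 647 injured (median 10181). Markers of other cell types were counted in each class. In inhibitory-like nuclei all 7 oligodendrocyte markers were detected, at a summed 116 CPM naive and 118 CPM injured, the 7 astrocyte markers summed to 74.9 and 66.3 CPM, the 5 measured endothelial markers to 36.7 and 29.7 CPM, and the 6 oligodendrocyte precursor markers to 344 CPM naive (Gpr17 at 0) and 376 CPM injured (Cspg4 at 0), against 494 and 466 CPM for the class's own 4 transmitter genes. In the excitatory-like class the same lists summed to 79.2 and 89.1, 48.6 and 40.7, 50.6 and 39.9, and 752 and 901 CPM, with Gpr17 the marker at 0. Slc17a6 itself stood at 234 and 220 CPM there. The 6 microglia markers summed to 74.0 and 65.1 CPM in inhibitory-like and to 110 and 103 CPM in excitatory-like nuclei. The part of all these markers in the values below was not tested. A UMI of Pdyn itself was found in 529 of the naive and 439 of the injured inhibitory-like nuclei.

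In both libraries 6 of the 8 genes stood at least 2-fold higher in inhibitory-like than in excitatory-like nuclei. Gucy2d, Pde11a and Nos1 stood 10.2 to 43.9 times higher there, while the kinase gene Prkg1 was transcribed in nearly every nucleus of either class. Of 13457 genes with at least 100 UMIs over both classes, 4.21% were at least 2-fold higher in inhibitory-like nuclei in both libraries and 5.02% at least 2-fold lower. Of the 7 members with that many UMIs, 6 were higher and none lower, and because the genes were proposed with this pattern known nothing is read from that count.

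The synthase gene Nos1 (chromosome 5, 117781032 to 117958840, GRCm38) stood at 90.8 CPM (86.4 to 95.4) in naive and 73.6 CPM (69.6 to 77.7) in injured inhibitory-like nuclei. In excitatory-like nuclei it stood at 7.05 CPM (47 UMIs) and 7.19 CPM (51 UMIs), so the inhibitory over excitatory ratio was 12.9 (9.64 to 17.6) naive and 10.2 (7.74 to 13.8) injured. A Nos1 UMI was found in 26.3% of naive and 24.2% of injured inhibitory-like nuclei, against 5.03% and 5.41% of excitatory-like nuclei, which were more deeply read. The intervals of the 2 classes lay far apart in either library. No Nos1 UMI was found in a small set of glia led by Opalin, Ptgds and Aspa, 30 naive and 35 injured nuclei with medians of 2040 and 2320 UMIs, which allows up to 44.9 and 33.8 CPM at 3 counts. The 52 naive and 47 injured astrocyte-like nuclei held 5 and 6 Nos1 UMIs, 35.7 CPM (11.6 to 83.4) and 23.3 CPM (8.56 to 50.8). Of the 5 naive ones 4 came from 1 nucleus.

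The receptor cyclase gene Gucy2d (chromosome 7, 98440416 to 98477479) had the widest class ratio of the 7 members with at least 100 UMIs, in either library. It stood at 98.8 CPM (94.2 to 104) naive and 99.1 CPM (94.4 to 104) injured in inhibitory-like nuclei, against 3.00 CPM (20 UMIs) and 2.26 CPM (16 UMIs) in excitatory-like nuclei. The ratio between classes was 32.9 (21.2 to 54.0) naive and 43.9 (27.0 to 77.0) injured, intervals that overlap. Of the inhibitory-like nuclei 38.8% naive and 41.3% injured held a Gucy2d UMI, and of the excitatory-like nuclei 1.63% and 1.85%. Over the inhibitory-like class as a whole the 2 libraries gave nearly the same picture for this gene.

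Among the natriuretic peptide genes, the ligand gene Nppc (chromosome 1, 86666291 to 86670571) stood at 18.5 CPM (16.5 to 20.6) naive and 17.3 CPM (15.4 to 19.4) injured in inhibitory-like nuclei. It had 21 and 11 UMIs in excitatory-like nuclei, for class ratios of 5.87 (3.78 to 9.61) and 11.2 (6.15 to 22.6). The receptor gene Npr1 (chromosome 3, 90450591 to 90465866) stood at 8.37 CPM (148 UMIs) and 7.85 CPM (135 UMIs) in inhibitory-like nuclei. With only 3 and 6 Npr1 UMIs in excitatory-like nuclei, its class ratios of 18.6 (6.24 to 91.2) and 9.28 (4.15 to 25.7) were loosely fixed. Npr2, the cyclase receptor of C-type natriuretic peptide, stood at a like level in both classes, at 19.7 CPM naive and 17.96 CPM injured in inhibitory-like nuclei and at 21.6 and 18.04 CPM in excitatory-like nuclei. The clearance receptor gene Npr3 (chromosome 15, 11839896 to 11907287) was the only member under 100 UMIs, with 13 naive and 20 injured UMIs in all nuclei. It had 4 UMIs in each library in inhibitory-like nuclei and none in excitatory-like nuclei, which allows up to 0.450 CPM naive and 0.423 CPM injured at 3 counts. Cluster 6 held 8 of the naive UMIs, in 4 nuclei, and 12 of the injured ones, in 6 nuclei. That cluster was left unnamed because its transmitter genes fell between the limits of the 2 classes.

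The kinase genes differed in breadth. Prkg1 (chromosome 19, 30564489 to 31765033) was found in 99.2% of naive and 99.5% of injured inhibitory-like nuclei, at 2382 CPM (2359 to 2405) and 2581 CPM (2557 to 2605). In excitatory-like nuclei it stood at 1222 CPM (1196 to 1249) and 1339 CPM (1312 to 1366), a class ratio of 1.95 naive and 1.93 injured, just outside the 2-fold limit. The glia set held 0 and 1 Prkg1 UMI, but astrocyte-like nuclei held 67 and 245, at 479 CPM naive and 953 CPM injured, in 23.1% and 31.9% of them. Of these UMIs 1 nucleus held 34 of the naive ones and 1 nucleus held 72 of the injured ones. The astrocyte-like cluster also held neuron markers, at a summed 6414 CPM, and the ependymal markers Dnah12 and Dnah6 were among its leading genes. The part of other cells in its Prkg1 level was not tested. Prkg2 (chromosome 5, 98929773 to 99037351) stood at 35.1 CPM (32.41 to 37.997) naive and 29.6 CPM (27.1 to 32.3) injured in inhibitory-like nuclei. In excitatory-like nuclei it stood at 7.50 CPM (5.57 to 9.89) and 14.4 CPM (11.7 to 17.5). The Prkg2 class ratio was therefore 4.68 (3.51 to 6.38) naive but 2.06 (1.66 to 2.57) injured, just inside the limit, and these intervals do not overlap.

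The phosphodiesterase gene Pde11a (chromosome 2, 75989141 to 76338774) stood at 485 CPM (474 to 495) naive and 598 CPM (586 to 609) injured in inhibitory-like nuclei. In excitatory-like nuclei it stood at 24.8 CPM (21.1 to 28.8) and 29.2 CPM (25.3 to 33.4), a class ratio of 19.6 (16.8 to 23.0) and 20.5 (17.9 to 23.6). The excitatory signal sat in few nuclei. Of the 207 injured excitatory UMIs 146 came from 11 nuclei with at least 5 UMIs each, and of the 165 naive ones 65 came from 9 such nuclei.

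**Figure D1:**
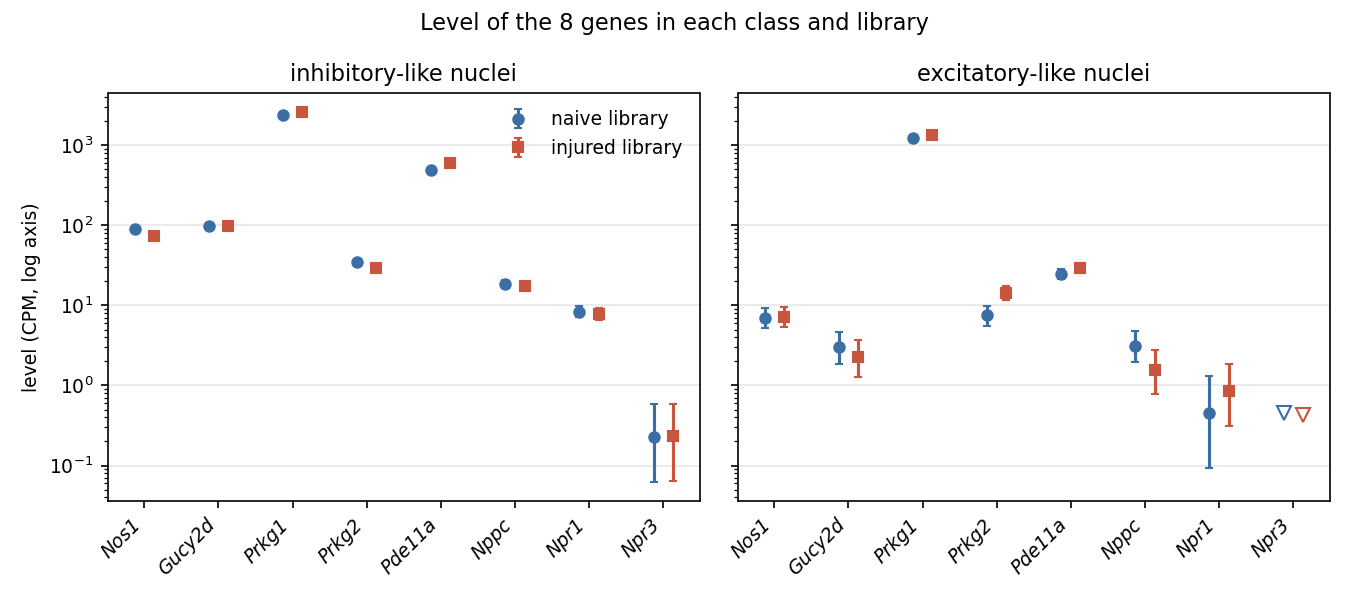
Level of each gene in CPM (log axis) in inhibitory-like (left) and excitatory-like (right) nuclei of the naive (circles) and injured (squares) library, with 95% counting intervals. Open triangles mark the level of 3 counts where no UMI was found (Npr3), and levels should be read within a gene, since genes differ in length.

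Within the inhibitory-like class the genes marked different clusters, largely the same in both libraries. Clusters are numbered, and no gene of the pathway took part in forming them, but other genes of the same nuclei did, so the differences between clusters are a description. Nos1 was highest in cluster 17 (also led by the prostaglandin receptor genes Ptgdr and Ptgfr), at 432 CPM naive and 430 CPM injured, with a UMI in 93.5% and 98.5% of its nuclei. Cluster 14 (led by Pamr1 and Crym) followed at 305 and 275 CPM. These 2 clusters held 19.8% of naive inhibitory-like nuclei (18.3% to 21.4%) and 77.1% of their Nos1 UMIs. In clusters 4 and 12 Nos1 lay between 68.2 and 92.2 CPM, and in cluster 3, the lowest in the injured library, at 4.72 and 2.77 CPM. Prkg2 was also highest in these 2 clusters, at 144 CPM naive and 152 CPM injured in cluster 17 and 77.6 and 86.1 CPM in cluster 14, but cluster 12 was close behind. Prkg2 stood there at 69.3 CPM (58.4 to 81.5) naive, within the interval of cluster 14 (68.0 to 88.2), and at 52.1 CPM injured, and after thinning to 3000 UMIs it was found in 22.2% of naive nuclei of cluster 12 and 20.3% of cluster 14. Prkg1 was also highest in cluster 17 (5103 and 6063 CPM), and lowest of the inhibitory-like clusters in cluster 4 (925 and 1008 CPM).

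Gucy2d, Pde11a and Npr1 peaked elsewhere, in clusters 3 (led by Prok2, Foxo1 and Chodl) and 11 (led by Cartpt and Plcg2). Gucy2d stood at 298 CPM naive and 295 CPM injured in cluster 3, and at 159 and 145 CPM in cluster 11. Pde11a was at 970 and 1173 CPM in cluster 3 and at 1137 and 1371 CPM in cluster 11, where 97.7% and 99.0% of nuclei held a UMI. Npr1 was at 12.9 CPM naive and 16.95 CPM injured in cluster 3 and at 22.3 and 12.5 CPM in cluster 11. Together these clusters held 43.4% of naive and 44.2% of injured inhibitory-like nuclei, and in the naive library 79.7% of the class's Gucy2d UMIs, 84.7% of its Pde11a UMIs and 86.5% of its Npr1 UMIs (72.6% in the injured library). Cluster 12 (led by Igf1 and Tacr3) held genes of both sets, with Pde11a at 433 and 505 CPM and Gucy2d at 88.5 and 75.7 CPM beside its Nos1 and Prkg2. High Pde11a with low Gucy2d was seen in cluster 8 (led by Tac2), where Pde11a stood at 284 and 373 CPM and Gucy2d at 8.28 and 5.90 CPM. Nppc marked a further set, clusters 10 (106 and 86.0 CPM), 4 (66.2 and 65.7 CPM) and 1 (56.2 and 40.0 CPM), which held 15.2% of naive nuclei of the class and 68.5% of its Nppc UMIs. Cluster 4 was the only one of the 10 inhibitory-like clusters above 50 CPM in both libraries for Nos1 and Nppc alike.

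**Figure D2:**
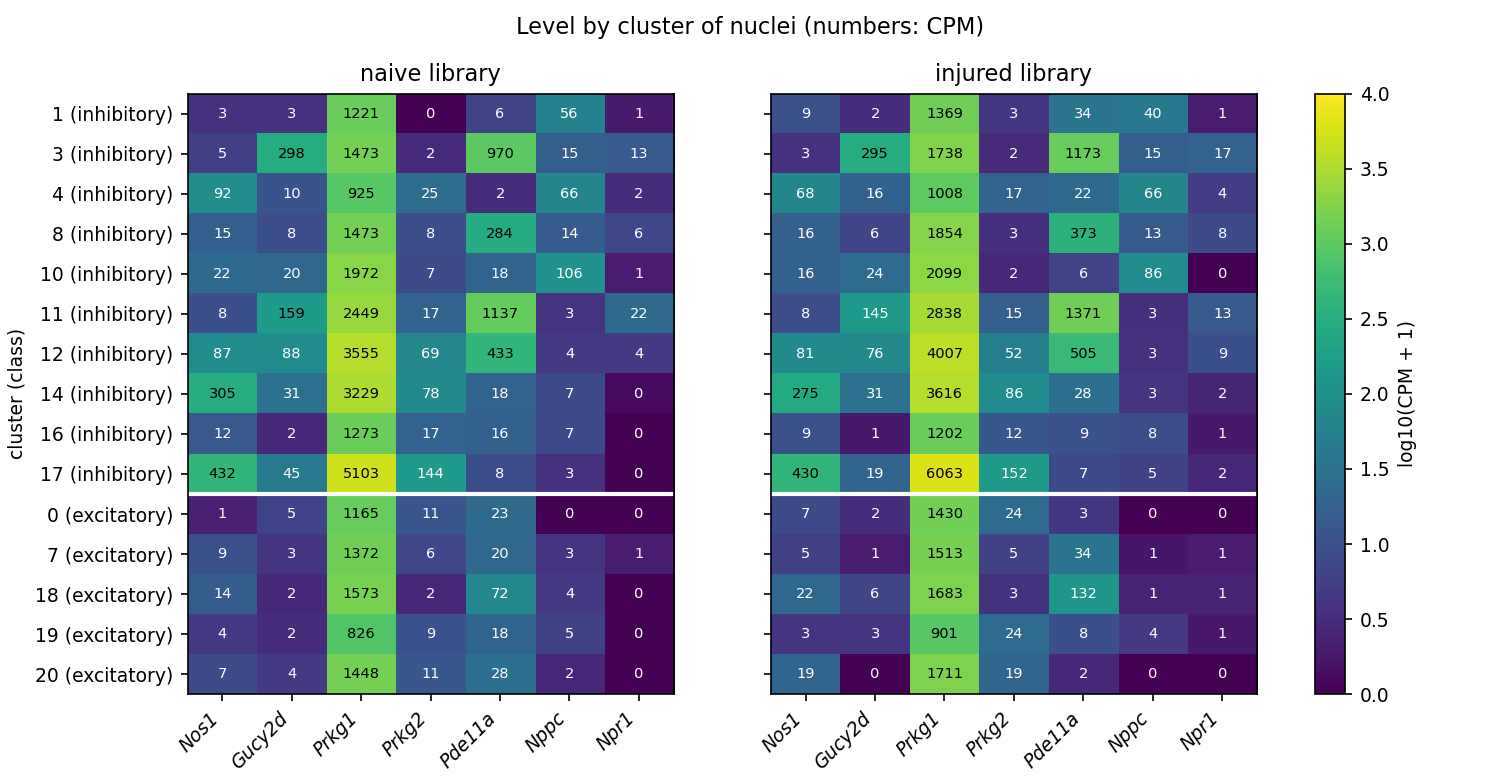
Level of 7 of the genes (columns) in each inhibitory-like and excitatory-like cluster (rows), naive library on the left and injured on the right. Colour is log10(CPM + 1), the printed number is the CPM, and a white line parts the classes: Nos1 and Prkg2 were highest in clusters 14 and 17, Gucy2d, Pde11a and Npr1 in clusters 3 and 11, and Nppc in clusters 1, 4 and 10.

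Which genes were found in the same nuclei was counted next. To compare nuclei of unequal depth, each was thinned to 3000 UMIs, which left 2486 naive and 2069 injured inhibitory-like nuclei and dropped 24 and 13. Pde11a was found in 81.6% of naive nuclei with Gucy2d (78.2% to 84.7%, n = 566) and in 39.7% of those without, and in 82.9% against 41.8% in the injured library. Of the nuclei with Npr1, 66 of 74 naive (89.2%) and 36 of 46 injured (78.3%) also held Pde11a, against 48.0% and 50.8% of those without Npr1. Gucy2d and Npr1 were not clearly found together: Gucy2d was in 29.7% of naive nuclei with Npr1 (19.7% to 41.5%) against 22.6% of the others, and in 32.6% (19.5% to 48.0%) against 23.2% injured, with overlapping intervals. Nos1 and Pde11a were seldom found together: Pde11a was in 13.1% of naive Nos1 nuclei against 56.4% of the others and in 16.3% against 57.4% in the injured library. Prkg2 went with Nos1, in 20.9% of naive nuclei with Nos1 against 6.65% of those without, and in 21.3% against 4.80% injured. Before thinning a Nos1 UMI was seen in 660 naive and 503 injured nuclei of the class, and afterwards in 411 and 300.

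Partner genes, 19 in all, were used to split the inhibitory-like nuclei further, and the 5 given with values were picked after their values were seen. Over all 19, the share of nuclei with Pde11a was higher beside 5 partners and lower beside 3, with intervals apart in both libraries, and not apart for 11. For Nos1 these counts were 3, 4 and 12, for Gucy2d 4, 3 and 12, for Prkg2 1, 1 and 17, for Nppc 0, 3 and 16 and for Npr1 1, 0 and 18. The nuclear receptor gene Rorb marks part of the dorsal horn inhibitory neurons. In inhibitory-like nuclei at 3000 UMIs, Pde11a was found in 75.4% of naive nuclei with Rorb and 15.3% of those without, and in 77.6% and 14.1% in the injured library. Gucy2d was found in 32.7% against 9.81% naive and 33.1% against 9.73% injured. Npr1 followed the same direction at 4.56% against 0.925% naive and 3.13% against 0.938% injured. Nos1 ran the other way, in 5.27% of naive nuclei with Rorb against 31.2% without and in 6.09% against 26.5% injured, as did Prkg2 (5.41% against 13.7% naive) and Nppc (2.78% against 6.94% naive).

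Values for 3 peptide genes and Alk follow. Nuclei with galanin (Gal) held Gucy2d more often than others, in 35.01% against 15.1% naive and 35.3% against 18.6% injured, and held Pde11a in 71.1% against 35.6% naive. Nuclei with a Pdyn UMI held Pde11a in 74.9% against 46.2% naive and 78.1% against 48.8% injured, and Nos1 in 6.84% against 17.7% naive and 4.28% against 15.5% injured. Nuclei with proenkephalin (Penk) were the reverse, with Nos1 in 35.7% against 13.5% naive and 25.7% against 13.3% injured, and Pde11a in 17.8% against 54.2% naive. The receptor tyrosine kinase gene Alk went with Nos1 (26.0% against 12.3% naive, 24.8% against 9.75% injured) and with Prkg2 (12.8% against 4.59% injured).

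**Figure D3:**
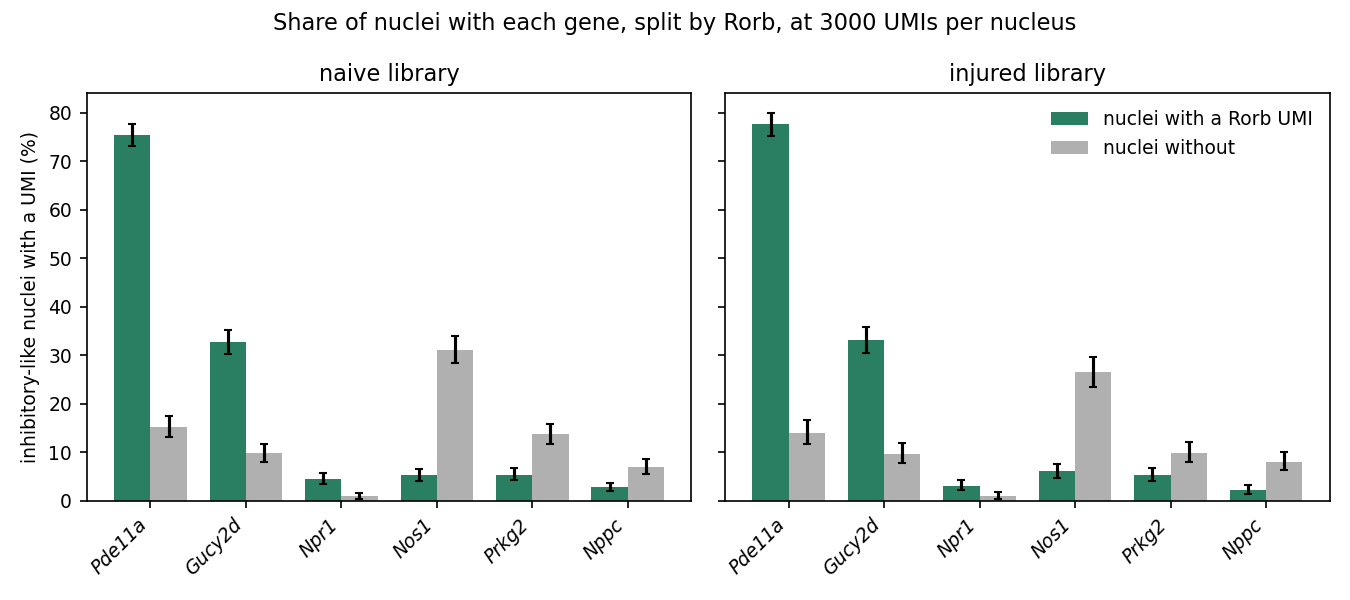
Share of inhibitory-like nuclei with a UMI of each gene, in nuclei with (green) and without (grey) a Rorb UMI, each nucleus thinned to 3000 UMIs, with 95% Clopper-Pearson intervals. Pde11a, Gucy2d and Npr1 were more frequent with Rorb, and Nos1, Prkg2 and Nppc more frequent without, in both libraries.

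The genes whose levels over the 15 neuronal clusters most resembled each member were found by Pearson r of log2(CPM + 1) among 8696 genes with at least 500 UMIs, taking the smaller of the 2 libraries' values. The clusters share their libraries and were built from many of these genes. For Nos1 they were Sema3c (r = 0.85 naive, 0.89 injured), Pola1 and Slc35d3. For Gucy2d they were Clec14a (0.90 and 0.88), Tmem255a and Ddx5, and for Prkg1 Camk2d (0.89 and 0.84), Pola1 and Prickle2. For Prkg2 they were P3h2 (0.81 and 0.84), Syndig1 and Gnal, and for Pde11a Wnt4 (0.86 and 0.90), Cdr2 and Mlxipl. For Nppc they were Kcnq3 (0.87 and 0.90), Ccbe1 and Cdh3, and for Npr1 Mlxipl (0.91 and 0.89), Tpm4 and Rorb. Pola1 was on the lists of Nos1 and Prkg1, and Mlxipl on those of Pde11a and Npr1.

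The design compares adult dorsal horn nuclei after a neonatal incision with those of naive littermates. In inhibitory-like nuclei 0 of the 7 genes that reached 100 UMIs differed by 1.5-fold between libraries, and in excitatory-like nuclei 1 of 3 did, Prkg2, which was 1.92-fold higher in the injured library. Of 12607 genes in inhibitory-like nuclei 0.167% were at least 1.5-fold higher in the injured library and 2.22% at least 1.5-fold lower, and of 10495 genes in excitatory-like nuclei 0.257% were higher and 2.39% lower. The median log2 ratio over all those genes was -0.09 in inhibitory-like nuclei, with the middle 90% between -0.47 and 0.19, and -0.07 in excitatory-like nuclei (-0.48 to 0.23). It also moved with gene length, from -0.21 in the shortest of 4 equal groups of genes to 0.02 in the longest in inhibitory-like nuclei. Nuclei of the injured library were more deeply read in both classes, and the part of depth was not tested.

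Nos1 was the member with the lowest ratio in inhibitory-like nuclei. Its level of 90.8 CPM naive against 73.6 CPM injured gave an injured over naive ratio of 0.810 (0.752 to 0.872). Inside clusters 14 and 17 together the level was 329.8 CPM (312 to 349) naive and 304 CPM (285 to 324) injured, a ratio of 0.922 (0.846 to 1.004), and outside them 26.4 and 22.8 CPM, a ratio of 0.866 (0.744 to 1.01). Those clusters held 19.8% of naive inhibitory-like nuclei but 17.4% of injured ones (15.8% to 19.1%). Weighting each cluster equally across libraries gave a Nos1 log2 ratio of -0.13, against -0.30 over all nuclei of the class. In nuclei with Y-linked UMIs and no Xist UMI it was -0.01 (-0.21 to 0.19), and in nuclei with Xist and no Y-linked UMIs -0.39 (-0.53 to -0.26).

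Pde11a had the highest ratio in that class, 1.23 (1.20 to 1.27), from 485 CPM naive to 598 CPM injured. The ratio lay between 1.17 and 1.31 in each of the 4 clusters where Pde11a was highest, at 1.21 (1.16 to 1.25) in cluster 11, 1.21 (1.15 to 1.28) in cluster 3, 1.17 (1.06 to 1.28) in cluster 12 and 1.31 (1.13 to 1.52) in cluster 8. The clusters with little Pde11a varied more. Over all 10 inhibitory-like clusters 7 intervals lay above 1 and 1 below. Cluster 10, with 17 naive and 6 injured UMIs, was the one below, at 0.320 (0.103 to 0.850). Clusters 1 and 4, with 6 and 2 naive UMIs, were the highest, at 6.08 and 10.4. The Pde11a log2 ratio of 0.30 over the class lay above the middle 90% of all genes, and it was 0.13 in nuclei with Y-linked UMIs alone and 0.39 in those with Xist alone. The gene spans 349.6 kb, and the longest of the 4 length groups, to which it belongs, had a median log2 ratio of 0.02.

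None of the other members reached 1.5-fold between libraries in inhibitory-like nuclei either. Gucy2d had a ratio of 1.003 (0.938 to 1.07). For Gucy2d the ratio was 1.01 (0.935 to 1.09) inside clusters 3 and 11 and 0.848 (0.723 to 0.993) in the rest of the class. Of the 10 inhibitory-like clusters 1 had an interval below 1 for Gucy2d and 0 had one above. It was cluster 17, with 33 naive and 11 injured UMIs, a ratio of 0.423 (0.193 to 0.858). Prkg1 had a ratio of 1.08 (1.07 to 1.10). Prkg2 had one of 0.842 (0.748 to 0.948), close to that of Nos1, and its log2 ratio of -0.25 lay within the middle 90% of all genes. For Prkg2 the ratio was 1.09 (0.927 to 1.27) inside clusters 14 and 17 and 0.717 (0.596 to 0.861) in the rest of the class. Nppc had a ratio of 0.936 (0.798 to 1.10) and Npr1 one of 0.937 (0.737 to 1.19), and for neither could a difference within those bounds be seen at this depth. The clusters differed for this receptor gene. In cluster 11 alone Npr1 stood at 22.3 CPM naive and 12.5 CPM injured, a ratio of 0.562 (0.391 to 0.800), while in cluster 3 it was 1.32 (0.819 to 2.15). In the rest of the class Npr1 had 20 naive and 37 injured UMIs, a ratio of 1.95 (1.10 to 3.54).

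**Figure D4:**
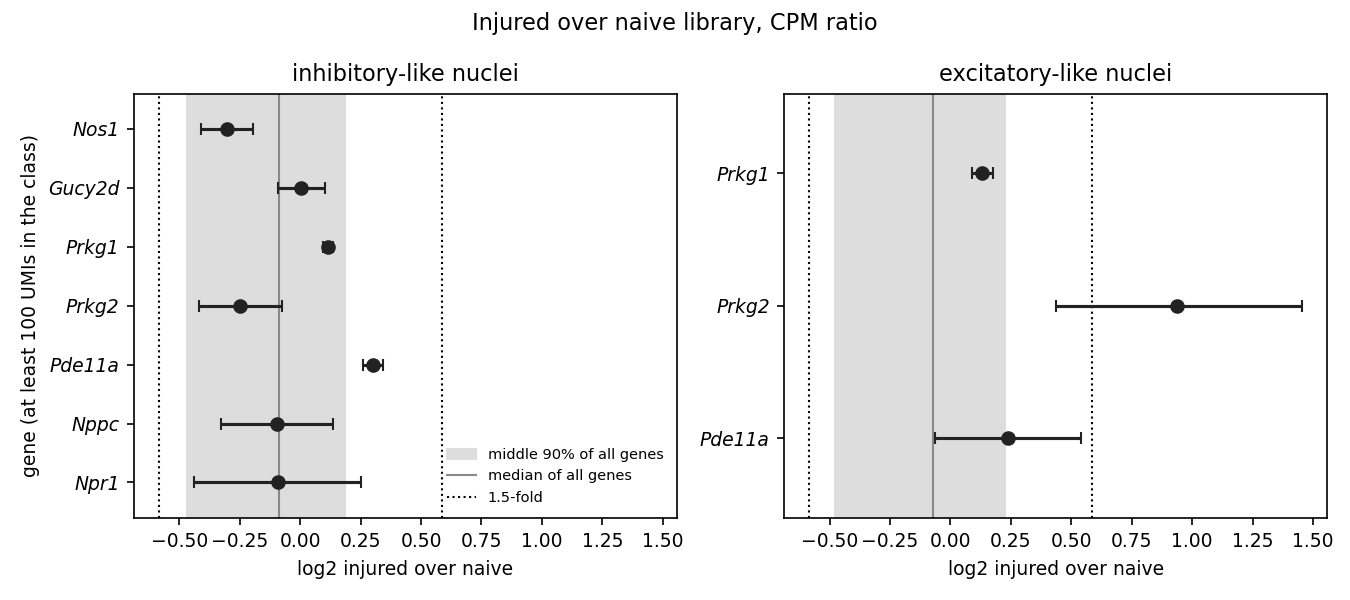
Injured over naive ratio (log2 of the CPM ratio, points with 95% counting intervals) of the genes that reached 100 UMIs in inhibitory-like (left) and excitatory-like (right) nuclei. Grey bands span the middle 90% of all genes with that many UMIs, the grey line is their median and dotted lines mark 1.5-fold; Prkg2 in excitatory-like nuclei lies beyond the dotted line, with an interval that crosses it.

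In excitatory-like nuclei Prkg2 had 50 UMIs in 41 of 736 naive nuclei and 102 UMIs in 75 of 647 injured nuclei, a ratio of 1.92 (1.35 to 2.74). The 5 excitatory-like clusters did not contribute alike. Cluster 19 (led by Unc5cl, Moxd1 and Wdfy4) went from 17 UMIs in 14 of 178 naive nuclei to 55 UMIs in 39 of 190 injured nuclei, 9.34 CPM against 24.3 CPM, a ratio of 2.60 (1.49 to 4.78). Cluster 0 had 8 and 21 UMIs, a ratio of 2.27 (0.966 to 5.92). Cluster 7, the largest, had 18 and 14 UMIs and a ratio of 0.847 (0.390 to 1.80). Clusters 18 and 20 had 1 and 2 and 6 and 10 UMIs. Without cluster 19 the class had 33 and 47 Prkg2 UMIs, under the minimum of 100, and a log2 ratio of 0.51 (-0.16 to 1.20), against 0.94 with it.

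Cluster 19 was described further for that reason. At Leiden resolution 0.5 the cluster led by the same genes, 196 naive and 197 injured nuclei, stayed unnamed because Vcan, an oligodendrocyte precursor marker, was among its leading genes, and so left the class. The 6 precursor markers summed to 1131 CPM naive and 1315 CPM injured in cluster 19. Nearly all of it was Tnr (566 and 731 CPM), Lhfpl3 (493 and 516 CPM) and Vcan (71.4 and 66.7 CPM). The sum was nearly as high in cluster 0, at 1096 CPM naive and 1142 CPM injured, and lower in the remaining excitatory-like clusters. Vcan stood at 10.7 and 5.81 CPM in cluster 0 and lower in those remaining clusters. In cluster 19 Pdgfra had 1 UMI in each library, Cspg4 had 1 naive and 0 injured, and Gpr17 had 0 in both. Of its injured nuclei 29 held exactly 1 Prkg2 UMI and 10 held 2 or more, against 12 and 2 of its naive nuclei, and no nucleus held more than 5. The median depth of its nuclei was 9831 UMIs naive and 11023.5 injured. After thinning to 3000 UMIs a Prkg2 UMI was found in 2.26% of its naive and 6.84% of its injured nuclei. Prkg2 UMIs in its nuclei with Xist alone were 13 in 125 naive and 34 in 132 injured nuclei, and in its nuclei with Y-linked UMIs alone 4 in 38 and 16 in 47. Nuclei with both, as a doublet of nuclei of a female and a male would have, were 5.62% of naive and 5.26% of injured nuclei of cluster 19. The 4 inhibitory transmitter genes summed to 24.7 and 25.2 CPM there.

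**Figure D5:**
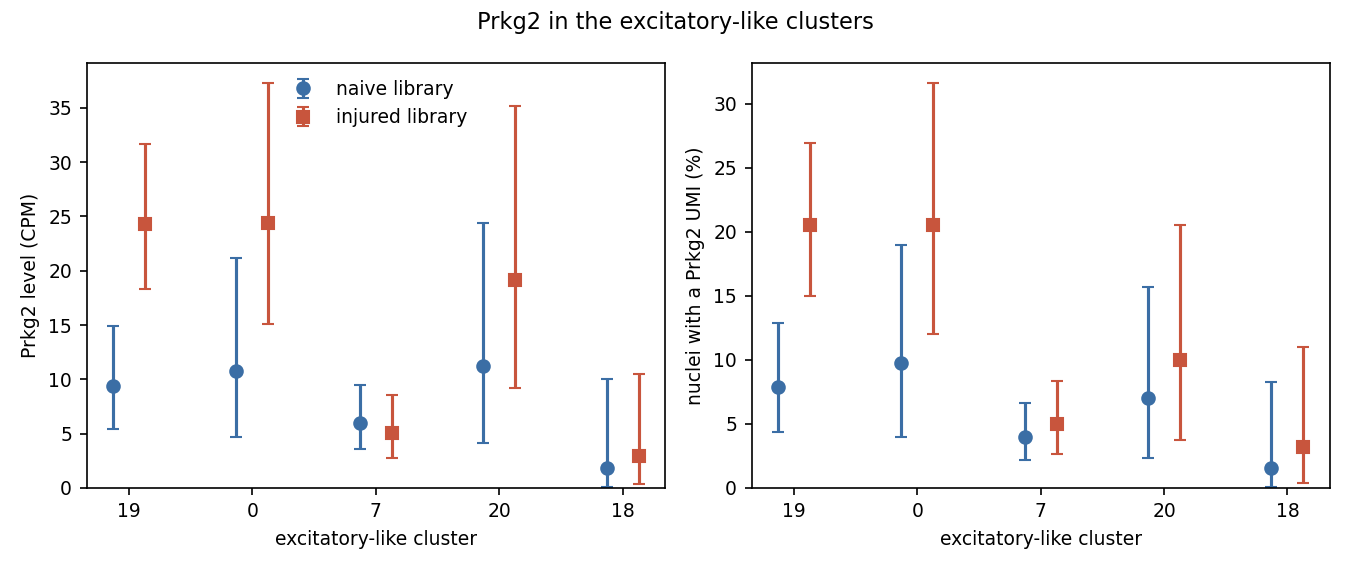
Prkg2 in the 5 excitatory-like clusters, as level in CPM (left) and as share of nuclei with at least 1 UMI (right), naive library as circles and injured library as squares, with 95% counting intervals. The intervals of the libraries part in cluster 19 and overlap in the other 4 clusters.

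Of the other members in excitatory-like nuclei, Prkg1 and Pde11a passed the minimum of 100 UMIs. Prkg1 had 8145 and 9499 UMIs and a ratio of 1.10 (1.06 to 1.13), and Pde11a 165 and 207 UMIs and a ratio of 1.18 (0.956 to 1.45). The direction for Pde11a was not stable: its log2 ratio of 0.24 was -0.12 when the 10% of nuclei richest in UMIs were left out, -0.20 in nuclei with Xist alone and 1.42 in those with Y-linked UMIs alone. By cluster, the Pde11a ratio was 0.153 (0.0286 to 0.527) in cluster 0, 0.463 (0.249 to 0.839) in cluster 19 and 0.0684 (0.00162 to 0.444) in cluster 20. It was 1.69 (1.21 to 2.38) in cluster 7 and 1.84 (1.25 to 2.73) in cluster 18. Some of these ratios rest on few UMIs, such as 15 naive and 1 injured in cluster 20. The remaining members had few UMIs in excitatory-like nuclei. Nos1 had 47 and 51 UMIs, a ratio of 1.02 (0.672 to 1.55), Gucy2d 20 and 16, Nppc 21 and 11 and Npr1 3 and 6, all under the minimum. For Nppc the ratio was 0.492 (0.214 to 1.07).

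The rest of the pathway was read from a list of 54 genes, 51 of them in the table. Of these, 32 had at least 100 UMIs in inhibitory-like nuclei and none differed by 1.5-fold between libraries in either direction, and 20 had them in excitatory-like nuclei, with Prkg2 the only one past that fold. The median log2 ratio of the list was 0.01 in inhibitory-like and 0.02 in excitatory-like nuclei, beside -0.09 and -0.07 over all genes. Many genes of the list belong to the longest of the 4 length groups, whose medians over all genes were 0.02 and 0.03. The part of gene length was not tested. Among the subunits of the nitric oxide receptor, Gucy1a2 (alpha 2) stood at 345 CPM naive and 399 CPM injured in inhibitory-like nuclei, a ratio of 1.15 (1.12 to 1.20), and at 321 and 352 CPM in excitatory-like nuclei. Gucy1a1 (alpha 1, listed as Gucy1a3) stood at 7.58 and 7.79 CPM in inhibitory-like nuclei. The beta 1 subunit Gucy1b1 (listed as Gucy1b3), which the working enzyme needs, stood at 24.1 and 21.2 CPM in inhibitory-like and at 51.5 and 53.0 CPM in excitatory-like nuclei. Its class ratio of 0.468 naive and 0.399 injured ran opposite to that of Nos1.

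Class differences past 2-fold were also seen for other genes of the list. Besides the 6 members, 3 of 25 tested were higher in inhibitory-like nuclei and 4 lower, beside 4.21% and 5.02% of all genes. The higher ones were Gucy1b2 (cyclase beta 2; ratio 4.69 naive, 4.72 injured), the cGMP-specific phosphodiesterase gene Pde9a (2.60 and 2.58) and Ddah1 (2.02 and 2.15), whose enzyme breaks down an inhibitor of nitric oxide synthase. The 4 lower ones were Pde3a (0.140 and 0.163), Nos1ap (0.275 and 0.254), which encodes an adaptor of the neuronal synthase, Pde10a (0.429 and 0.386) and Gucy1b1. Pde10a, a phosphodiesterase of both cyclic nucleotides, stood at 264 and 289 CPM in inhibitory-like nuclei and at 617 and 749 CPM in excitatory-like nuclei. Of the other genes with the highest levels, Pde1a stood at 211 and 239 CPM, Pde3b at 85.2 and 96.8 CPM and Ddah1 at 72.8 and 66.5 CPM in inhibitory-like nuclei, and Pde1a at 107 and 105, Pde3b at 128 and 137 and Pde1c at 91.5 and 114 CPM in excitatory-like nuclei.

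The lowest injured over naive ratios among the other genes of the list in inhibitory-like nuclei were 0.726 (0.520 to 1.01) for Spr, 0.741 (0.597 to 0.918) for Pde6a and 0.747 (0.654 to 0.852) for Pde1b. Spr encodes an enzyme that makes tetrahydrobiopterin, a cofactor of nitric oxide synthase. The highest were 1.31 (0.936 to 1.83) for Pde5a, a cGMP-specific phosphodiesterase, and 1.16 (0.889 to 1.505) for Gucy1b2, with Gucy1a2 beside them. In excitatory-like nuclei the lowest were 0.738 (0.565 to 0.963) for Pts, also of the cofactor's synthesis, 0.754 (0.535 to 1.06) for the channel gene Cngb3 and 0.758 (0.648 to 0.886) for the cGMP-stimulated Pde2a. The highest there were 1.24 (1.12 to 1.38) for Pde1c, 1.22 (1.17 to 1.27) for Pde10a and 1.11 (0.981 to 1.25) for Nos1ap, all short of 1.5-fold. Spr and Pts belong to the shortest of the 4 length groups. The median log2 ratio of that group over all genes was -0.21 in inhibitory-like and -0.20 in excitatory-like nuclei.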

How the data were processed

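Mouse nuclei of 2 pooled libraries (1 per group) were analysed. The authors deposited raw UMI counts of all nuclei in 1 table and normalized values per library, which equal the natural log of 1 plus 10000 times count over nucleus total, with a largest deviation of 5.3e-15. The headers of the normalized tables gave each nucleus its library. Cell Ranger 3.0.2, Seurat and build mm10 were used, per the submitters' processing notes, and annotation, use of intronic reads and filters are not given in the sources used. All nuclei and the raw counts were used, and doublets were not removed.

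Clustering ran in scanpy 1.11.5 and igraph 0.11.9 (scikit-learn 1.9.0, Python 3.11.15) on 2000 variable genes, 30 components and 15 neighbours, Leiden resolution 1.0, run until stable after a look at cluster quality, with 171 genes, the pathway's among them, kept out. A cluster was inhibitory-like when Gad1, Gad2, Slc32a1 and Slc6a5 together reached 10 times Slc17a6, and excitatory-like when Slc17a6 reached 4 times their sum. It was kept out of both when its 10 leading genes held more non-neuronal or CSF-contacting markers than markers of its class. For that reason cluster 15 (Slc17a6 at 145 CPM against 21.6 CPM, a mural marker) and cluster 2 (10.8 CPM against 431 CPM, Schwann markers) stayed unnamed. Names needed 3 detected markers. The astrocyte-like and CSF-contacting clusters were named from at least 2 leading markers of their own. Other clusters, apart from the small glia set, stayed unnamed, 629 naive and 688 injured nuclei.

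Levels have exact Poisson, shares Clopper-Pearson and ratios exact conditional binomial 95% intervals (scipy 1.17.1); the code was tested on simulated data. A gene needed 100 UMIs, and 1.5-fold between libraries or 2-fold between classes in both libraries counted as different. All 8 members are described. Other pathway genes are named for the 3 highest or lowest ratios, the 5 highest levels or as direct partners. Members, lists and limits were chosen with earlier results of these data known. The groups of clusters and the account of cluster 19 were chosen after their values were seen. Gene positions are from GENCODE on GRCm38 (mm10). Alternatives were other scalings, weights, class assignments, nucleus subsets, thinning and minimum counts.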

Additional observations from a re-analysis of the deposited data

Results flagged for a closer look

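The injured over naive ratio of Prkg2 lay on opposite sides of 1 in the 2 classes of neurons. In excitatory-like nuclei it was 1.92 (1.35 to 2.74), past 1.5-fold, and in inhibitory-like nuclei 0.842 (0.748 to 0.948), short of it. The difference between the classes was not tested, since each group is 1 pooled library. Of the excitatory Prkg2 UMIs, 17 of 50 naive and 55 of 102 injured lay in cluster 19.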

How the results depend on the processing

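No paired analysis was possible because each group is 1 library and the groups share only replicate number 1. The count of members 1.5-fold apart between libraries was 0 of 7 in inhibitory-like nuclei and was also 0 in the other settings tried, except that with each nucleus classed by its own transmitter genes it was 1, Nos1 at a log2 ratio of -0.64. In excitatory-like nuclei the count was 1 of 3. It was 0 at Leiden resolution 0.5, without the 10% of nuclei with most UMIs, in nuclei with Xist alone, in those with Y-linked UMIs alone, after thinning and, an alternative chosen after seeing the data, without cluster 19, in all of which Prkg2 had under 100 UMIs; at resolution 0.5 the counterpart of cluster 19 was unnamed. It was 2 with a minimum of 20 UMIs (6 genes) and 3 with a minimum of 1 UMI (7 genes). The Prkg2 log2 ratio there lay between 0.51 and 1.01 over 11 settings, above 0 in each. In inhibitory-like nuclei the Prkg2 log2 ratio of -0.25 turned to 0.040 in nuclei with Y-linked UMIs alone. The count of 6 members 2-fold higher in inhibitory-like nuclei was 4 with classes from own transmitter genes. Of these 6, only Prkg2 had a log2 class ratio under 1 in any setting, 0.70 at the lowest in the injured library. The lowest value among the others was 2.44, for Nppc in the naive library. In the naive library Npr1 had a class ratio in only 6 of 7 alternative settings. Levels of few UMIs limit Npr1, Nppc and Gucy2d in excitatory-like nuclei, and Npr3 everywhere.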
